A study of Rattus norvegicus with 10 samples.

Results

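Expression in the prefrontal cortex was compared between the rats of highest and lowest locomotion score in a set of 10 inbred Lewis rats. The high group comprised the 4 rats with a score above 13500 (rats 1, 2, 4 and 7) and the low group the 4 rats with a score below 10700 (rats 6, 8, 9 and 10), so 8 of 10 rats entered the comparison and rats 3 and 5, with middle scores, stayed outside it. Every animal was a male of 200 to 250 g from a set of 40 tested for behaviour, received no treatment, carried no engineered allele, and was killed 6 days after its last test. Each rat gave 1 Affymetrix array. The dissected piece was frontal cortex (Fr1, Fr2) anterior to bregma, with the olfactory bulb removed; the labels give weights but no ages. The series addresses how brain mRNA levels relate to behavioural differences between animals of 1 inbred strain.

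The prefrontal cortex receives dopamine input from the midbrain and sends excitatory output to the striatum, whose projection neurons express dopamine receptors densely and take part in the control of movement. Immediate-early genes such as Fos are transcribed within minutes of neuronal firing and decay soon after, so their level in a dissected cortex reflects the period just before death. Lewis rats are inbred, so animals of the strain are genetically near-identical.

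Locomotion scores were 17045, 13933, 17987 and 13696 in high rats 1, 2, 4 and 7, and 10692, 10278, 10284 and 9420 in low rats 6, 8, 9 and 10; the labels state no unit for any score. The group means were 15670 ± 2173 (SD, n = 4) and 10170 ± 535 (SD, n = 4), a difference set by the choice of rats. Sugar feeding also separated the groups without overlap. It was 1.95, 1.65, 1.50 and 2.15 in the high rats and 0.95, 0.50, 0.65 and 1.15 in the low rats, with means of 1.81 ± 0.29 and 0.81 ± 0.29 (SD, n = 4 each; two-sided exact permutation test, p = 0.0286, the smallest that 4 against 4 rats allow; 0.0858 after Benjamini-Hochberg adjustment over 3 other behaviours). Startle averaged 552 ± 268 in the high rats and 790 ± 131 in the low rats (SD, n = 4 each; exact permutation p = 0.171, adjusted 0.256), with high rat 7 the most startled of all at 943. Prepulse inhibition averaged 21.7 ± 16.3 and 32.0 ± 7.86 (SD, n = 4 each; exact permutation p = 0.371, the same after adjustment). Among these 8 rats, high locomotion and high sugar feeding marked the same 4, and differences between the groups cannot be told apart from differences by sugar feeding.

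The array controls also differed between the groups. The 45 spike-in control probe sets, which detect bacterial and phage transcripts added during preparation, averaged 6.43 in the high group and 6.23 in the low group (log2), with no overlap (difference 0.19, exact permutation p = 0.0286, adjusted 0.129 over 9 control measures). The 18 hybridisation controls carried it, at 12.07, 12.14, 11.97 and 11.89 in high rats 1, 2, 4 and 7 against 11.87, 11.58, 11.65 and 11.23 in low rats 6, 8, 9 and 10 (difference 0.43, exact permutation p = 0.0286). The 27 poly-A controls lay near background on every array, at group means of 2.70 and 2.67 (exact permutation p = 0.343). The gap between 3′ and 5′ probe sets of beta-actin, GAPDH and hexokinase, which widens as RNA degrades, averaged 1.18 ± 0.13 and 1.11 ± 0.069 log2 (SD, n = 4 each; exact permutation p = 0.486) and was widest in rat 7, at 1.37. The part of hybridisation in the gene differences was not tested. Fits with these controls as a term are given below as descriptions. The spike-in mean, the hybridisation controls and sugar feeding each separate the groups without overlap. A fit with 1 of them as a term therefore cannot divide a difference between it and locomotion.

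**Figure D1:**
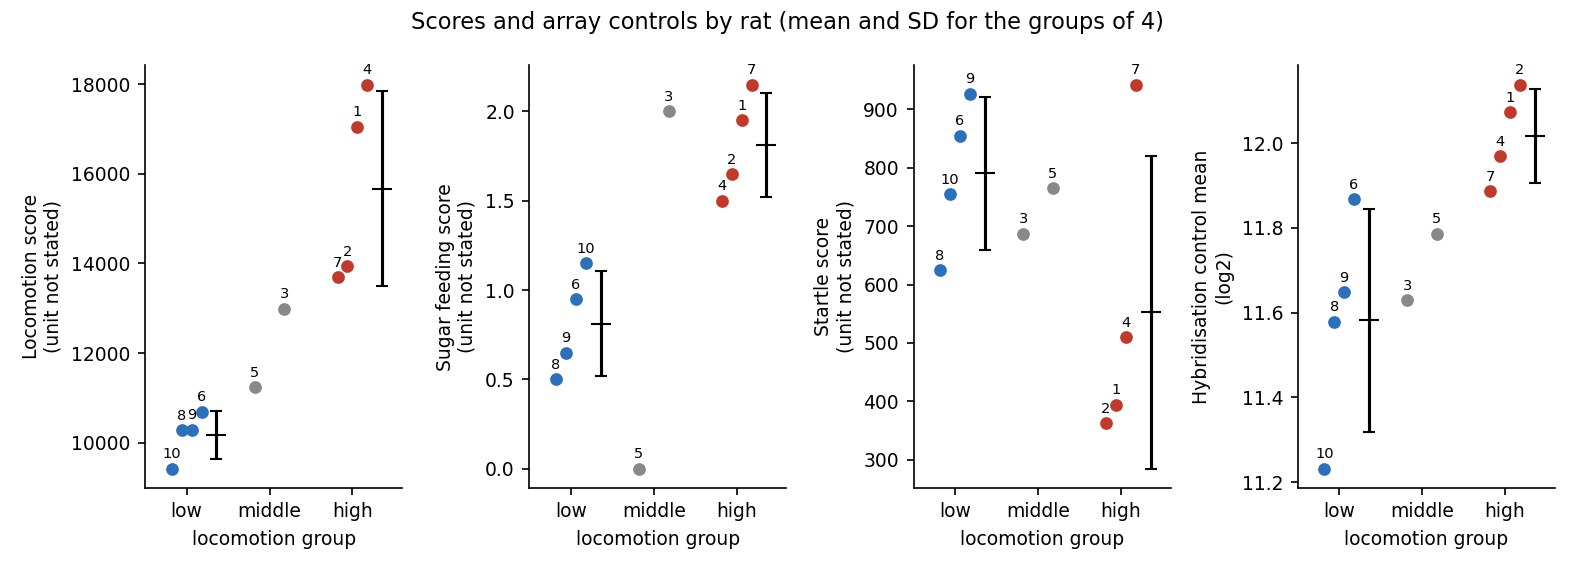
Locomotion, sugar feeding and startle scores (units not stated) and the mean of the hybridisation controls (log2) for each numbered rat, by locomotion group, with the mean and SD of the groups of 4. Sugar feeding and the hybridisation controls separate high from low rats, while startle overlaps, with high rat 7 at 943.

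Slc17a7, the vesicular glutamate transporter of cortical excitatory neurons, was bright, with means of 12.67 and 12.76 log2 in the groups. All 8 choroid plexus and ependymal markers with a probe set lay below 3.99 log2, the level that marks the brighter 50% of probe sets, Ttr among them at 3.91. Of 10 olfactory bulb markers 7 lay below it, Omp and Th among them at 2.35 and 1.97, while Dlx1, which interneurons also express, averaged 6.53, Pcp4l1 6.20 and Cdhr1 4.34. Striatal projection neuron markers were detected and varied widely between rats: on a score that averages the log2 deviations of 14 such genes from their means over all rats, high rat 7 stood at 1.20, high rat 4 at 0.72 and low rat 10 at 0.40, while the other 7 rats lay between -0.50 and 0.051. These 3 arrays stand apart from the rest in that score, and each gene list described below whose direction rests on them is given with and without them. In a piece of tissue, more cells of a type and more RNA per cell cannot be told apart.

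No probe set separated the groups after correction. Of 21262 named probe sets, 0 (0%) had an adjusted p under 0.05 in the limma fit with Benjamini-Hochberg adjustment, and the smallest adjusted p was 0.928. At an unadjusted p under 0.05, 349 probe sets (1.64%) were higher and 92 (0.433%) lower in the high group. Complete separation, with every high rat above every low rat, held for 230 probe sets (1.08%), and the reverse for 66 (0.31%). The median difference over all probe sets was 0.014 log2 with a median SE of 0.059, and the 5th and 95th percentiles were -0.12 and 0.16. Values are given below as log2 levels, and differences as high minus low in log2 units with the SE of the fit. The adjusted p of the limma fit was 0.928 or above for every gene described.

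The excess of higher over lower probe sets depended on the scaling of the arrays. After a second quantile normalisation the unadjusted counts were 205 higher and 312 lower, and after centring each array on its median they were 144 and 289. With the spike-in mean as a term they were 199 and 169. The balance of higher and lower probe sets thus turned with the scaling, and the genes below are described one by one.

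**Figure D2:**
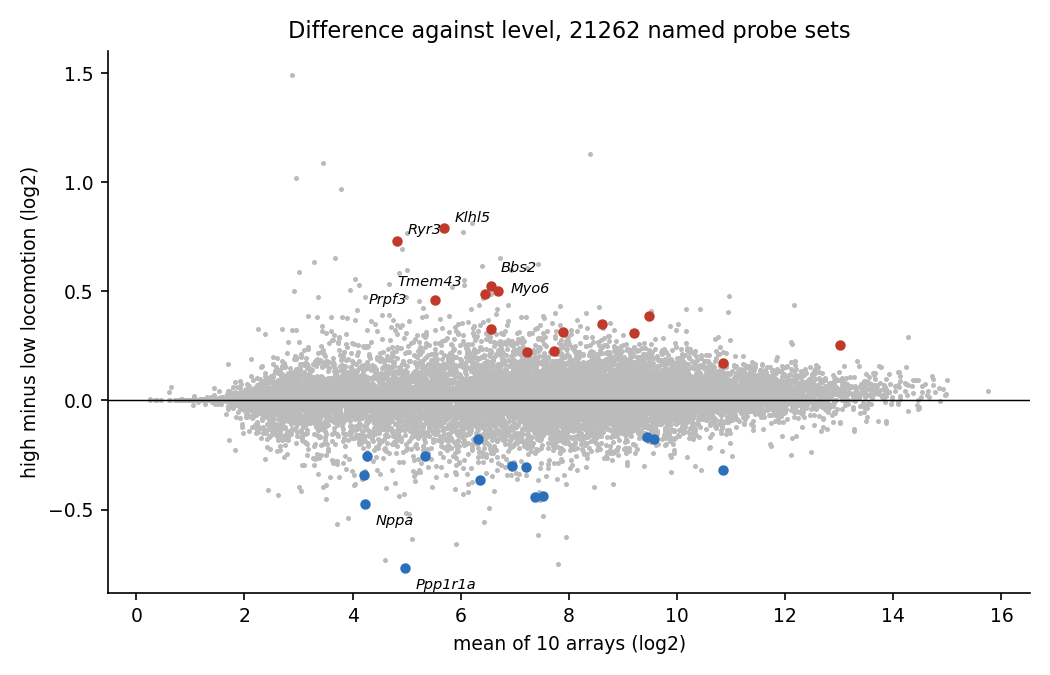
Difference between group means (high minus low, log2) against the mean of 10 arrays (log2) for each of 21262 named probe sets (grey), with the genes named by p or by size in red (higher) and blue (lower). The largest named differences are Klhl5 at 0.79 and Ppp1r1a at -0.77, and no point passed the adjusted threshold.

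Msh6, which recognises mismatched DNA bases, had the smallest p of all. Its level was 8.12, 8.19, 8.03 and 7.96 in high rats 1, 2, 4 and 7, and 7.80, 7.81, 7.72 and 7.70 in low rats 6, 8, 9 and 10. Every high rat lay above every low rat, by a mean of 0.31 ± 0.065, a 1.24-fold difference (limma unadjusted p = 0.00103). Bbs2, a subunit of the complex that sorts membrane proteins into primary cilia, read 7.02, 6.92, 6.50 and 6.77 in the high rats and 6.34, 6.23, 6.22 and 6.32 in the low rats. The low rats lay close together and the high rats above them, for a difference of 0.52 ± 0.11 or 1.44-fold. Rfx4, a transcription factor of the family that controls ciliary genes, was at 6.75, 6.77, 6.92 and 6.92 in the high rats against 6.61, 6.61, 6.32 and 6.51 in the low rats, a gap of 0.33 ± 0.084 with no overlap.

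Pum2, an RNA-binding repressor of translation that is abundant in neurons, read 13.17, 13.11, 13.09 and 13.31 in high rats 1, 2, 4 and 7 and 12.97, 12.85, 12.97 and 12.88 in low rats 6, 8, 9 and 10. Its groups did not overlap, and the difference was 0.25 ± 0.059 at one of the highest levels on the arrays. The 2 other probe sets of Pum2 above the level filter differed by 0.00 and 0.05. Ddx39b, an RNA helicase of splicing and mRNA export, differed by 0.17 ± 0.044, Ppil4, a prolyl isomerase with an RNA-binding domain, by 0.31 ± 0.079, and Tsr1, needed to mature the small ribosomal subunit, by 0.23 ± 0.058, each without overlap. Prpf3, a component of the spliceosome named for the size of its difference, differed by 0.46 ± 0.13. The other probe set of Ppil4 above the level filter differed by -0.013 ± 0.088, so its 2 probe sets did not give the same picture.

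Tmem43, a protein of the inner nuclear membrane, read 6.55, 6.80, 6.84 and 6.67 in the high rats and 6.51, 6.00, 6.30 and 6.09 in the low rats, a difference of 0.49 ± 0.12 in which high rat 1 and low rat 6 nearly met. Ano3, a member of the anoctamin family, differed by 0.39 ± 0.099, Zfp704, a zinc finger protein, by 0.35 ± 0.08, and Ostf1, an adaptor protein with an SH3 domain, by 0.22 ± 0.05. A second probe set above the level filter differed by 0.09 for Ano3 and by 0.07 for Zfp704. Ostf1 was among the most even within groups, with SDs of 0.025 and 0.040 (n = 4 each). Myo6, a myosin motor that moves cargo inward from the cell surface, differed by 0.50 ± 0.13 on 1 probe set without overlap, whereas its brighter probe set differed by -0.082 ± 0.15.

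The largest separations leaned on single animals. Klhl5, a kelch-family protein, read 6.81, 5.65, 5.94 and 5.68 in high rats 1, 2, 4 and 7 and 5.62, 5.45, 5.30 and 4.55 in low rats 6, 8, 9 and 10. High rat 1 and low rat 10 lay far from their groups, while rats 2 and 6 nearly met, and the mean difference was 0.79 ± 0.30 or 1.73-fold (0.53 without rat 1). A second Klhl5 probe set above the level filter differed by 0.10. Ryr3, a calcium release channel of the endoplasmic reticulum, was at 4.91, 5.12, 4.94 and 5.99 in the high rats against 4.33, 4.57, 4.51 and 4.61, a difference of 0.73 ± 0.22 that was 0.48 without rat 7. With the spike-in mean as a term, the difference was -0.0079 ± 0.34 for Klhl5, 0.13 ± 0.15 for Prpf3 and 0.12 ± 0.079 for Zfp704. With sugar feeding as a term, Myo6 differed by 0.078 ± 0.25 and Ryr3 by 0.13 ± 0.46.

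Among genes with lower levels in the high group, Ppp1r1a had the largest difference. It encodes inhibitor-1, a protein that blocks protein phosphatase 1 once it is phosphorylated by protein kinase A. Levels were 4.51, 4.70, 4.75 and 4.55 in high rats 1, 2, 4 and 7 and 4.85, 5.63, 5.87 and 5.24 in low rats 6, 8, 9 and 10. The high rats lay close together and the low rats spread widely, and the difference was -0.77 ± 0.20 or 1.70-fold. It was -0.047 ± 0.36 with sugar feeding as a term, and the other probe set of Ppp1r1a, far brighter at a mean of 10.84, differed by -0.04 ± 0.051 with overlapping groups.

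Nppa, the precursor of atrial natriuretic peptide, read 3.95, 3.66, 4.11 and 4.08 in the high rats and 4.54, 4.54, 4.16 and 4.46 in the low rats. The difference was -0.47 ± 0.12 with no overlap. Its high group mean, 3.95, lay below the 3.99 that marked the brighter 50%, and its low group mean, 4.43, above it. Nppa thus passed the level filter through rats outside the high group, and its separation was not weighed as more than a contrast near that level. Slc17a7 was lower by its dimmer probe set, at 10.62, 10.91, 10.86 and 10.52 against 11.16, 10.94, 10.98 and 11.11, a difference of -0.32 ± 0.097. Rats 2 and 8 nearly met, and the brighter Slc17a7 probe set differed by -0.084 ± 0.083 with overlapping groups. Capza1, which caps actin filaments, differed by -0.17 ± 0.046, and Taf10, a subunit of the general transcription factor TFIID, by -0.17 ± 0.057, both without overlap.

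Wrn, a DNA helicase, differed by -0.17 ± 0.058 and Zfp84, a zinc finger protein, by -0.25 ± 0.08, both without overlap. Mta3, a subunit of a histone deacetylase complex, differed by -0.44 ± 0.14, Aven, an inhibitor of apoptosis, by -0.36 ± 0.11, Klhl42, a kelch-family adaptor, by -0.44 ± 0.13, Trappc13, a subunit of a vesicle tethering complex, by -0.30 ± 0.086, and Hdhd2, a hydrolase-family protein, by -0.30 ± 0.098, all with overlap. Incenp, of the chromosomal passenger complex, and Zfp692 separated the groups at low levels, by -0.34 ± 0.15 and -0.25 ± 0.12. A second probe set of Hdhd2 differed by 0.10 ± 0.088, one of Zfp84 by 0.15 ± 0.10 and one of Zfp692 by 0.029 ± 0.074, against the sign of the one named. The 2 other probe sets of Trappc13 above the level filter differed by 0.01 and -0.00. A second one differed by -0.14 for Mta3 and by -0.11 for Incenp.

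**Figure D3:**
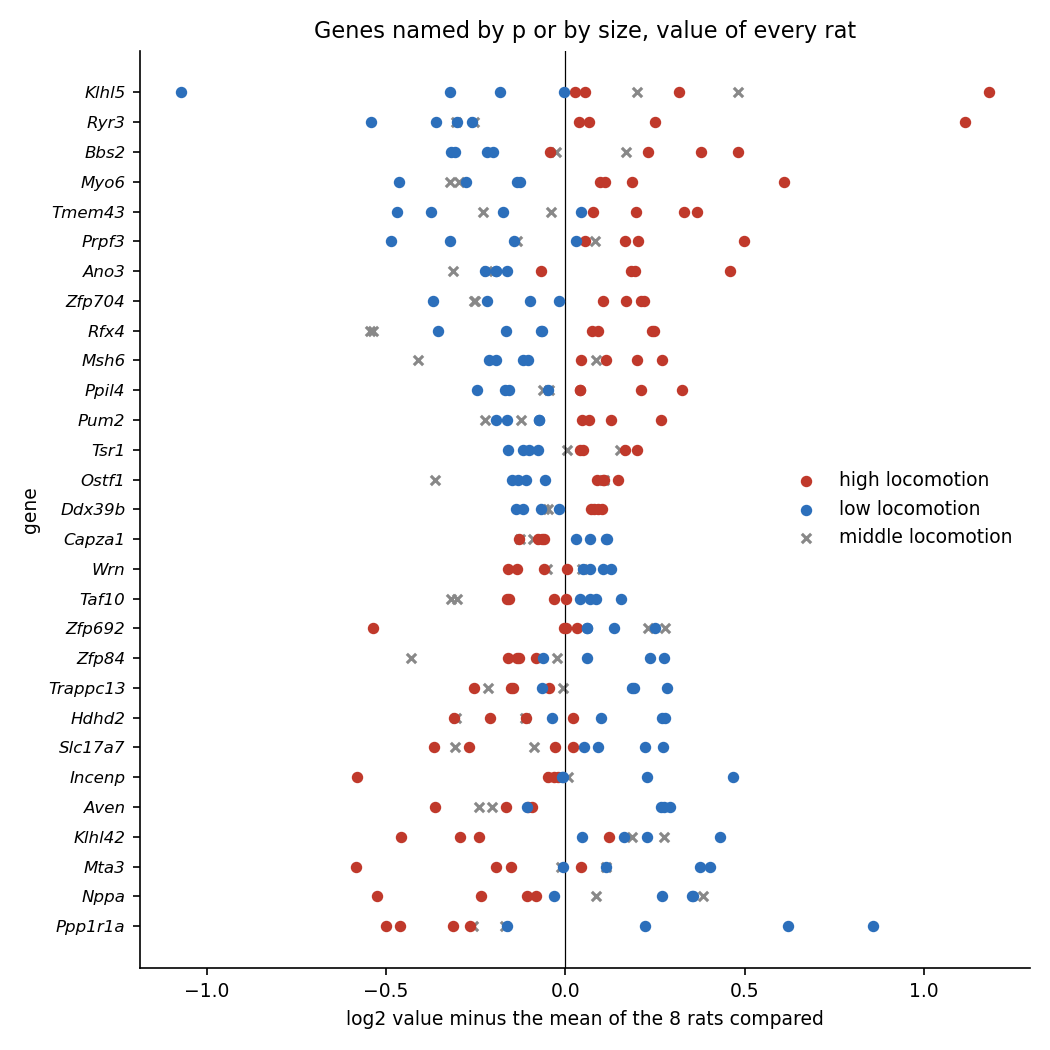
Log2 value of every rat minus the mean of the 8 compared rats, for each gene named by its p or its size: high rats in red, low rats in blue, middle rats as grey crosses. Msh6 and Ddx39b show tight, separate groups, and single rats carry Klhl5 and Ryr3.

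Rats 3 and 5 were not used to choose these genes. Their locomotion scores were 12985 and 11237, between those of the groups. For the 12 higher genes of smallest p, their mean lay between the group means for 5 genes, below both for 7 and above both for 0; for the 12 lower genes it lay between for 5, below both for 6 and above both for 1. Over the 11849 named probe sets of the brighter 50% the mean lay between for 19.3%, below both for 63.3% and above both for 17.4%. The chosen genes had group means set apart by the choice, which leaves more room between them. The counts between therefore cannot be weighed against the share of all probe sets. The middle rats had the lowest overall means over named probe sets after scaling, 5.67 and 5.72 log2, as against 5.72 to 5.76 in the others. Rfx4 was at 6.14 and 6.13 in rats 3 and 5, below every high and low rat, and Msh6 at 7.50 in rat 3 and 8.00 in rat 5. Rat 3, which has the higher score of the pair, was above rat 5 for 9 of the 12 higher genes (75%) and 4 of the 12 lower (33.3%), against 40.6% of all.

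Gene groups were described by 1 probe set a gene, the brightest, over the 8483 genes in the brighter 50% of probe sets. Of all these genes 61.9% had a higher mean in the high group, 1.8% had every high rat above every low rat, 0.542% had the reverse, and 3.25% had an unadjusted p under 0.05 in either direction; the median difference was 0.022. After median centring 3848 of 8483 had a higher mean, and after quantile normalisation 3805. A list is read against these shares, and 0 genes of any list passed the adjusted threshold in the limma fit. The directions of most lists were not stable to the choice of rats: of 32 lists with a measured gene, the median had the other sign in 13 without rats 4, 7 and 10 and in 19 without at least 1 single rat, 24 in either case. The 8 lists whose median kept its sign in these fits were those of noradrenaline and acetylcholine receptors, glutamate receptors, opioid and endocannabinoid genes, feeding peptides, ribosomal proteins, endoplasmic reticulum chaperones, actin and myosin, and astrocytes. Those fits only left out rats. With the spike-in mean as a term, the median turned for glutamate receptors (-0.0010), ribosomal proteins (-0.017), actin and myosin (-0.0038) and astrocytes (-0.089). The other lists of the 8 kept their sign in that fit, feeding peptides at 0.0046.

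Striatal projection neuron markers had the largest list median, 0.31, with 14 of 14 measured genes higher in mean, 1 of them (Meis2) without overlap and with an unadjusted p under 0.05. Drd1, the dopamine receptor of striatal neurons that project directly to the output nuclei, read 6.23, 5.91, 9.06 and 9.60 in high rats 1, 2, 4 and 7 and 6.28, 7.73, 5.98 and 8.38 in low rats 6, 8, 9 and 10. High values occurred in both groups, and the difference of 0.61 ± 0.93 was smaller than its error (-0.025 without rat 7). Drd2, the receptor of the indirect pathway, read 4.10, 4.05, 6.16 and 7.57 against 4.13, 5.08, 4.08 and 5.50, a difference of 0.77 ± 0.77. Penk, which encodes the enkephalin precursor of that pathway, differed by 0.48 ± 0.53 and Ppp1r1b, which encodes the phosphatase inhibitor downstream of dopamine receptors, by 0.34 ± 0.49.

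Rats 7 and 4 in the high group and rat 10 in the low group held the highest striatal values. Without rat 7 the list median was 0.013 with 9 of 14 genes higher, and without rats 4, 7 and 10 it was -0.19 with 3 of 14 higher. With sugar feeding as a term it was -0.26 with 1 of 14 higher, and with the spike-in mean 1.07 with 14 of 14. Adora2a, the adenosine receptor of the indirect pathway, had the largest difference of all named probe sets, 1.49 ± 0.88, at a mean level of 2.89 under the filter; it was picked out after its value was seen. Pcp4l1, listed as a bulb gene, followed the striatal genes, at 7.72 and 8.44 in rats 4 and 7 and 6.59 in rat 10 against 5.28 to 6.05 elsewhere. How much striatal tissue the samples held was not tested.

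**Figure D4:**
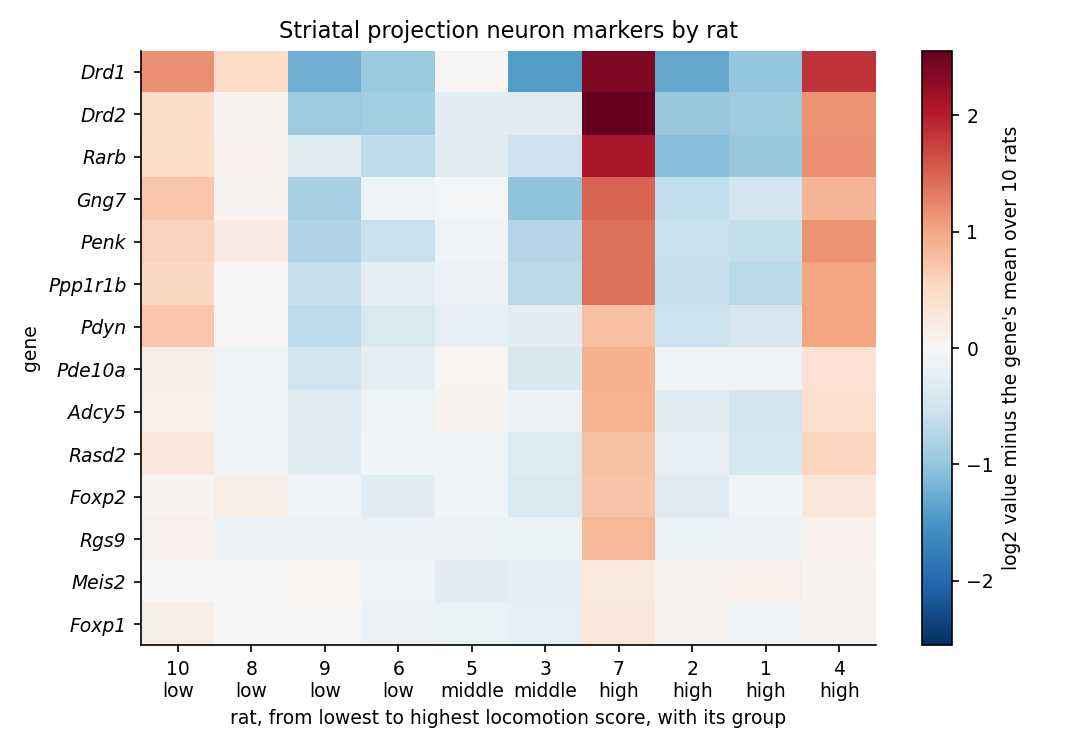
Log2 value minus the gene's mean over 10 rats for 14 striatal projection neuron markers (rows), with rats ordered from lowest to highest locomotion score. Rats 7, 4 and 10 are high, which places 2 high rats and 1 low rat apart from the rest, and the colour does not follow the order of scores.

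Meis2, a transcription factor of striatal and other neurons, was the exception to that pattern. It read 11.68, 11.63, 11.62 and 11.80 in high rats 1, 2, 4 and 7 and 11.46, 11.55, 11.60 and 11.56 in low rats 6, 8, 9 and 10. The groups separated narrowly, by 0.14 ± 0.055. Dopamine signalling, a list that shares Drd1, Drd2, Ppp1r1b, Pde10a, Adcy5 and Rgs9 with the striatal markers, had 12 of 12 genes higher with a median of 0.23, which was 0.053 with 8 of 12 higher without rat 7 and -0.064 with 5 of 12 higher without rats 4, 7 and 10. Of its 6 genes outside the striatal list, Pde1b, a phosphodiesterase that striatal neurons also express, differed most, by 0.22 ± 0.24, and was highest in rats 4, 7 and 10, at 10.06, 10.25 and 9.78. Maob, an enzyme that degrades dopamine, differed by 0.14 ± 0.098 and Maoa by 0.067 ± 0.073. Opioid and endocannabinoid genes had 6 of 7 higher with a median of 0.11, led by Penk, while Cnr1, the cannabinoid receptor, differed by 0.11 ± 0.076. Without rats 4, 7 and 10 this list had 4 of 7 higher with a median of 0.115, and Penk differed by -0.22.

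Receptors for noradrenaline and acetylcholine leaned the other way, with 3 of 10 genes higher and a median of -0.089 (-0.12 after median centring and after quantile normalisation). The median was -0.0125 with 4 of 10 higher with the spike-in mean as a term. It was -0.0131 with 5 of 10 with sugar feeding and 0.0020 with 5 of 10 with the hybridisation controls. Without rat 1 it was -0.035 with 4 of 10 higher. Chrm3, a muscarinic receptor coupled to calcium release, read 6.86, 7.49, 7.57 and 7.09 in high rats 1, 2, 4 and 7 and 7.52, 7.79, 7.80 and 7.73 in low rats 6, 8, 9 and 10. Rats 4 and 6 overlapped, and the difference was -0.46 ± 0.16; it was 0.13 with sugar feeding as a term. Chrna4, a subunit of the main nicotinic receptor of brain, differed by -0.14 ± 0.072 without overlap. Rat 1, with the lowest Chrm3 and Chrna4, also had the lowest score of the list.

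Glutamate receptors and transporters had 17 of 24 genes higher (median 0.061) and genes of GABA 9 of 14 (median 0.044, and -0.011 with 6 of 14 without rat 2). With the spike-in mean as a term the glutamate list had 12 of 24 higher and a median of -0.0010. Grik2, a kainate receptor subunit, differed by 0.22 ± 0.087, Gria2, the subunit that limits calcium entry through AMPA receptors, by 0.13 ± 0.079, and Grin2a, a subunit of NMDA receptors, by -0.03 ± 0.12. Gad1, which makes GABA, differed by 0.16 ± 0.07, with levels of 12.08 ± 0.12 and 11.93 ± 0.085 (SD, n = 4 each), and Gabrg1, a receptor subunit, by 0.38 ± 0.19. A second Gad1 probe set above the level filter differed by 0.01. Serotonin receptors had 2 of 3 measured genes higher, and Htr2a, the main excitatory one of cortex, differed by -0.20 ± 0.27. Potassium channels were divided, with 12 of 22 higher.

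Immediate-early and activity-induced genes had 16 of 19 higher and a median of 0.068, yet the rats varied far more than the groups. Fos, which encodes a subunit of the transcription factor AP-1, read 8.13, 9.08, 9.59 and 8.91 in high rats 1, 2, 4 and 7 and 8.06, 9.66, 8.56 and 4.91 in low rats 6, 8, 9 and 10. Low rat 10 lay far below all others and low rat 8 above every high rat, and the difference of 1.13 ± 0.88 was 0.17 without rat 10. Arc, which acts at synapses after activity, read 8.82, 9.72, 10.30 and 9.66 against 8.44, 10.83, 9.35 and 8.76, a difference of 0.28 ± 0.51. Egr1 differed by 0.27 ± 0.19, with rat 10 again lowest at 11.38, and Bdnf, a growth factor that supports synapses, by 0.14 ± 0.12. Without rat 10 the list had 7 of 19 higher and a median of -0.027, and without rats 4, 7 and 10 it had 5 of 19 and -0.13. With the spike-in mean as a term it had 7 of 19 and -0.0855, and with sugar feeding 18 of 19 and 0.75. In the spike-in fit Fos differed by -0.85, Egr1 by -0.32 and Bdnf by -0.0615. Per1, which light and activity also induce, differed by -0.34 ± 0.24, with high rats 1 and 2 at 5.17 and 5.25 and the other rats at 5.89 or above.

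Glucocorticoid-responsive genes had 10 of 15 higher and a median of 0.042, which turned to 4 of 15 and -0.068 without rats 4, 7 and 10, and to 7 of 15 and -0.0080 without rat 4 alone. Fkbp5, a chaperone of the glucocorticoid receptor that glucocorticoids induce, read 7.75, 7.59, 7.67 and 7.79 in high rats 1, 2, 4 and 7 and 7.55, 7.21, 7.28 and 7.52 in low rats 6, 8, 9 and 10. The groups did not overlap, although rats 2 and 6 lay close, and the difference was 0.31 ± 0.091 (limma unadjusted p = 0.00822). It was -0.082 with sugar feeding as a term. The receptor gene Nr3c1 differed by 0.045 ± 0.067, Sgk1, another target, by 0.042 ± 0.052, and Tsc22d3 by 0.0028 ± 0.093. Fkbp5 was the single member of its list with an unadjusted p under 0.05.

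Clock genes were divided, with 10 of 18 higher and a median of 0.010. Nfil3, a repressor in the clock's output loop, was higher without overlap, by 0.21 ± 0.077, and Tef, an activator that binds the same sites, differed by 0.19 ± 0.097. The 2 other probe sets of Tef above the level filter differed by -0.11 and 0.22. Bhlhe40 differed by -0.16 ± 0.085 and Bmal1 by 0.18 ± 0.16. Feeding peptides and receptors had 8 of 13 higher with a median of 0.059. That list had 7 of 13 and 6.92e-05 without rat 2, and 6 of 13 and -0.032 with the hybridisation controls as a term. Npy5r, a neuropeptide Y receptor, differed by 0.25 ± 0.11 and Nucb2, the precursor of the satiety peptide nesfatin, by 0.20 ± 0.085, while Npy itself differed by -0.043 ± 0.093. Genes linked to physical activity had 10 of 15 higher with a median of 0.023: Creb1 differed by 0.17 ± 0.077, and Fndc5, the precursor of irisin, by -0.18 ± 0.11. A second Fndc5 probe set above the level filter differed by 0.17, against the sign of the one given. A second Creb1 probe set differed by 0.00.

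Ribosomal protein genes gave small differences of mostly 1 sign: 26 of 27 had a higher mean, with a median of 0.053 and a largest difference of 0.14 ± 0.08 (Rpl14). The count was 23 after median centring, 22 after quantile normalisation, 9 with the spike-in mean as a term and 3 with sugar feeding as a term. On the score of this list the high rats ranged from 0.0099 to 0.14 and the low rats from -0.053 to 0.15, with low rat 6 the highest of all. Subunits of oxidative phosphorylation had 30 of 42 higher with a median of 0.022, which became 17 of 42 after median centring and 20 of 42 without rat 2 or without rat 8. Ndufs8 of complex I was the exception in size, at 8.32, 8.35, 8.45 and 8.22 in high rats 1, 2, 4 and 7 and 8.57, 8.63, 8.62 and 8.39 in low rats 6, 8, 9 and 10. Its difference was -0.22 ± 0.075 with rats 4 and 10 crossing, and 0.11 with sugar feeding as a term. Glycolytic genes were divided, with 9 of 18 higher, also without rats 4, 7 and 10, and 3 of 18 without rat 8. Cytosolic heat shock proteins had 10 of 14 higher with a median of 0.016 (6 of 14 and -0.0063 without rat 2), among them Hspa2 at 0.18 ± 0.073 without passing the adjusted threshold.

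Chaperones of the endoplasmic reticulum and genes of the unfolded protein response had 21 of 28 higher (75%) and a median of 0.045, which was 0.014 with 19 of 28 higher after median centring. Several genes of this response are known to carry a promoter element on which the stress factor ATF6 acts, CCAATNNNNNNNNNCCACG. Promoters of members that hold it are shown because the element is a shared feature that the grouping by locomotion did not use. In the 250 bases before the start of each gene, read on both strands in RefSeq promoters of the GRCr8 rat assembly, the element was found in 7 of the 23 list members with an entry (30.4%) and in 22 of 33469 promoters (0.0657%). Below are stretches of 4 of them, 5′ to 3′ on the strand of the gene, with the 2 ends of the element in capitals.
Hspa5, chr3:38452933-38453015, plus strand: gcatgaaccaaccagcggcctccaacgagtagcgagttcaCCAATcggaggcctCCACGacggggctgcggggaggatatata
Dnajc3, chr15:102432494-102432592, plus strand: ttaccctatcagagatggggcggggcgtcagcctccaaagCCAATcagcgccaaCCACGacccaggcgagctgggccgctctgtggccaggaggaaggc
Xbp1, chr14:84604518-84604616, plus strand: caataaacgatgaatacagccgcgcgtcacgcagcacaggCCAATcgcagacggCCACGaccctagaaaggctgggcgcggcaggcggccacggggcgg
Hsp90b1, chr7:23012307-23012405, minus strand: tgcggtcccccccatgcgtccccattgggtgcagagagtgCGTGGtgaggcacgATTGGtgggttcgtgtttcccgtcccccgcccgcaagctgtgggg
In Hsp90b1 the element shown lies on the opposite strand, which is why its ends read CGTGG and ATTGG, and a second match lies on the strand of the gene.

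The 7 genes with the element all had a higher mean in the high group, with a median of 0.061, as did 11 of the 16 without it, with a median of 0.034. Dnajc3, a co-chaperone that also restrains the translation-blocking kinase PERK, read 7.38, 6.95, 7.16 and 6.90 in high rats 1, 2, 4 and 7 and 6.97, 6.97, 6.77 and 6.66 in low rats 6, 8, 9 and 10. The groups overlapped, and the difference was 0.26 ± 0.12. Hspa5, the main chaperone of this compartment, differed by 0.16 ± 0.094, Xbp1 by 0.10 ± 0.073 and Hsp90b1 by 0.061 ± 0.042. Canx, the smallest of the 7 at 0.036 ± 0.06, was at -0.0046 after quantile normalisation. Hyou1, another chaperone, differed by -0.15 ± 0.078 and Ddit3, a factor of the terminal stress response, by 0.17 ± 0.089. A match of letters is a description and does not show that a factor acts there.

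**Figure D5:**
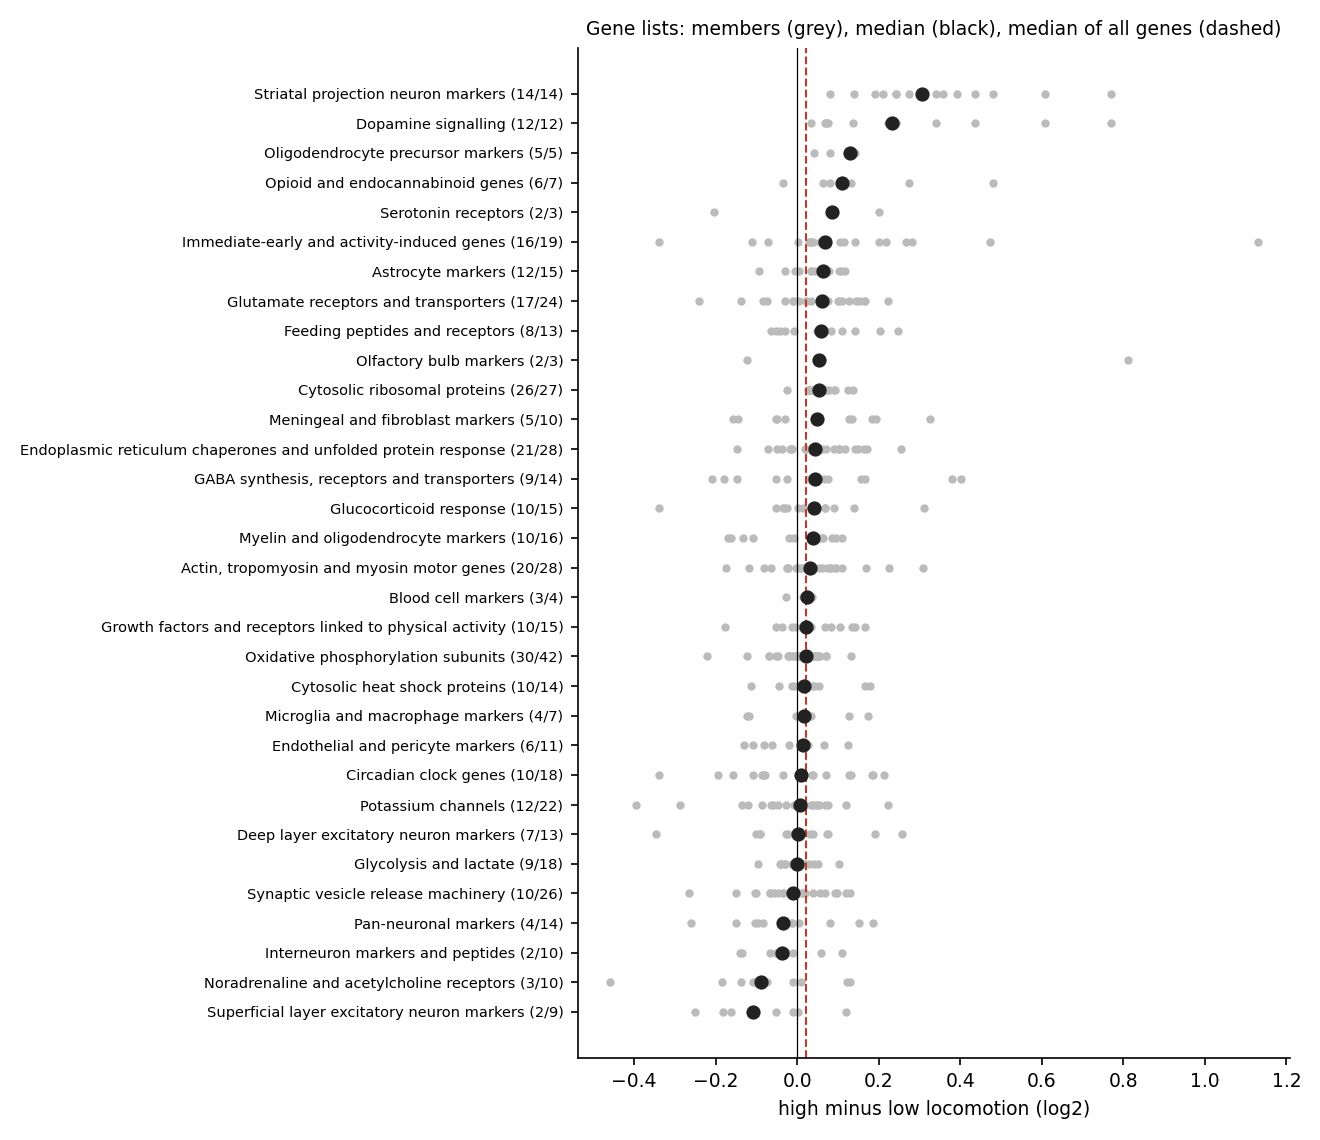
High minus low difference (log2) for the measured members of each gene list (grey), the list median (black) and the median of all 8483 genes (dashed red line, 0.022); the solid line marks 0 and the label gives how many members were higher. Striatal and dopamine genes lie farthest to the right and superficial layer markers farthest to the left.

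Most lists of neuronal markers had more genes lower than higher in the high group, a lean that was not kept without rats 4, 7 and 10. Superficial layer excitatory neuron markers had 2 of 9 higher and a median of -0.11, among them Rasgrf2, an exchange factor for Ras proteins, at -0.25 ± 0.14, and Wfs1, a membrane protein of the endoplasmic reticulum, at -0.18 ± 0.11. High rat 7 had the lowest score on that list, -0.18, and high rat 2 the highest, 0.15. Without rats 4, 7 and 10 the count was 5 of 9 and the median 0.059. Deep layer markers were divided, with 7 of 13 higher; Bcl11b, which striatal neurons also express, differed by 0.26 ± 0.13 and Tbr1 by -0.35 ± 0.24, with rat 7 highest for the first at 12.60 and lowest for the second at 6.62. Interneuron markers had 2 of 10 higher with a median of -0.036, and 5 of 10 with a median of 0.0094 without those rats; Pvalb, the calcium-binding protein of fast-spiking cells, differed by -0.14 ± 0.11. Markers of neurons in general, a list that also holds Slc17a7 of excitatory neurons, had 4 of 14 higher with a median of -0.034. The count was 7 of 14 and the median 0.0053 without those rats, and 8 of 14 and 0.0086 without rat 7 alone. Nefh, the heavy neurofilament, differed by -0.26 ± 0.11 and Map2, a dendritic protein, by 0.15 ± 0.067. A second Map2 probe set above the level filter differed by -0.05. Genes of synaptic vesicle release had 10 of 26 higher with a median of -0.011. That turned to 18 of 26 and 0.039 without rat 7, to 19 of 26 and 0.032 without rat 6, and to 19 of 26 and 0.049 without rats 4, 7 and 10.

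Glial lists mostly had more genes higher than lower, where 61.9% of all genes were higher. By the brightest probe set, astrocyte markers (80%) and oligodendrocyte precursor markers (100%) exceeded that share, while myelin (62.5%) and microglial markers (57.1%) lay near it. The astrocyte excess was not kept when all probe sets of a gene were averaged. Astrocyte markers then had 8 of 15 higher with a median of 0.0051, and precursor markers 5 of 5, where 5143 of 8483 genes were higher. Astrocyte markers had 12 of 15 higher with a median of 0.063, which became 1 of 15 with the spike-in mean as a term. Gja1, the gap junction protein of astrocytes, differed by 0.11 ± 0.08 and Gfap, their intermediate filament, by 0.044 ± 0.079. Oligodendrocyte precursor markers had 5 of 5 higher with a median of 0.13, led by Pdgfra at 0.14 ± 0.12, but 2 of 5 without rats 4, 7 and 10. Myelin markers had 10 of 16 higher with a median of 0.040, and 0 of 16 with a median of -0.22 without those rats, which also hold high values on the myelin score (0.33, 0.43 and 0.20). The myelin count was 3 of 16 without rat 4, 1 of 16 without rat 7 and 3 of 16 without rat 9. Mbp, a main protein of myelin, differed by 0.038 ± 0.10. Microglial markers had 4 of 7 higher (2 of 7 without rats 4, 7 and 10), endothelial and pericyte markers 6 of 11 (10 of 11 without rat 7 and 2 of 11 without rat 8) and blood cell markers 3 of 4. Meningeal markers had 5 of 10 higher with a median of 0.049, which was 10 of 10 and 0.48 without low rat 9 but 1 of 10 and -0.19 without low rat 8. Col1a1, the collagen of meninges, ran from 6.91 in low rat 8 to 9.49 in low rat 9 and differed by 0.33 ± 0.50. A second Col1a1 probe set above the level filter differed by -0.07.

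Among actin and myosin genes, 2 of 28 were higher (Myo5b and Myo10) and 1 lower (Arhgdig) at an unadjusted p under 0.05, where 3.25% of all genes were called in either direction. Myo5b, a motor that brings recycling vesicles to dendritic spines, read 9.11, 9.06, 9.24 and 9.09 in high rats 1, 2, 4 and 7 and 8.85, 8.91, 8.82 and 9.01 in low rats 6, 8, 9 and 10. The groups separated, by 0.23 ± 0.065 (limma unadjusted p = 0.00712), with rats 2 and 10 closest. Arhgdig differed by -0.17 ± 0.061 with overlapping groups. Tmod1, which caps actin filaments and was not among the genes called, differed by -0.12 ± 0.057 without overlap. The list had 20 of 28 higher with a median of 0.031, and 14 of 28 after median centring, so its members did not share a direction once the arrays were centred.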

How the data were processed

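Total RNA of 10 prefrontal cortices was hybridised to Affymetrix rat arrays, 1 per rat. The authors deposited 1 log2 value for each probe set and array, made with GCRMA under R 2.6.2, per the submitters' processing notes. GCRMA corrects background by probe sequence and normalises by quantiles, which brings array distributions close together. The medians of the deposited arrays still ran from 3.91 (rat 10) to 4.02 log2 (rat 1). Hybridisation dates are not given in the sources used here.

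Of 31099 probe sets, 57 array controls were set aside. The platform annotation named 21262 of the other 31042 (20826 with 1 symbol, 436 with several), all tested with no level filter; 9780 have none. Groups were compared with limma 3.58.1 in R 4.3.3 (lmFit, eBayes with trend, two-sided, Benjamini-Hochberg, threshold 0.05), which was tested on simulated data. Single measures used exact permutation tests. The number of arrays limits the precision, and each rat is a separate animal.

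Named genes were, per direction, the 12 of smallest p and the 6 of largest non-overlapping difference (1 symbol, brighter 50% by mean, same sign without any 1 rat), the 2 of smallest p in each list and a panel of 20. Genes given beyond these were chosen after their values were seen. The members and lists were chosen with earlier results of these data known, so no list is independent evidence. Alternatives covered scaling, level filter, moderation, probe set choice, control and behaviour terms, the middle rats and leaving out each rat.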

Additional observations from a re-analysis of the deposited data

Results flagged for a closer look

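Within groups of 4 rats, 6 of 176 groups examined held a rat far from the other 3 by Dixon's 95% limit, where chance alone gives about 1 in 20. Low rat 6 was apart on the astrocyte marker score, at 0.2391 against -0.027 to -0.067 in the other low rats, and for Gfap, at 11.34 against 11.05 to 11.09. Low rat 10 had the lowest Egr1, 11.38 against 12.15 to 12.22 in the other low rats. Low rat 8 had Aven at 6.295 against 6.667 to 6.694, inside the range of the high rats. High rat 7 had Incenp at 3.627 against 4.161 to 4.188, and high rat 4 had Zfp692 at 3.673 against 4.207 to 4.243, and the differences of -0.340 and -0.253 were -0.203 without rat 7 for Incenp and -0.116 without rat 4 for Zfp692.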

How the results depend on the processing

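The count past the adjusted threshold was 0 under every alternative run, and the smallest adjusted p ran from 0.145 (without rats 4, 7 and 10, a fit chosen after seeing the data) to 1. The unadjusted count of 441 was 1003 with startle as a term and 945 without rats 4, 7 and 10, and ran from 276 (without rat 10) to 666 (without rat 4) when 1 rat was left out. Probe sets without overlap numbered 296, and 3277 without rats 4, 7 and 10, when 2 rats faced 3. Their split of 230 higher and 66 lower was 176 and 221 after quantile normalisation and 85 and 227 after median centring. The spike-in difference of 0.193 was 0.0317 for the poly-A controls alone (exact permutation p = 0.343) and 0.136 to 0.236 without 1 rat (exact permutation p = 0.0286 without any 1 low rat and 0.0571 without any 1 high rat). Of 38 named genes with an unadjusted p under 0.05, 4 of 798 values had the other sign: Chrm3 0.133, Fkbp5 -0.0816 and Ndufs8 0.106 with sugar feeding as a term and Klhl5 -0.00791 with the spike-in mean. Genes named by p or by size had been chosen to keep their sign without any 1 rat, so those fits could not turn them. The share of values with the other sign is therefore no measure of their stability. Of the 66 other named genes, 48 had the other sign at least once (96 of 1386 values), Incenp among them at 0.0273 with sugar feeding. List medians moved by over 1 SD of the list score in 34 of 512 cases. The cause was not tested in any of these. No paired analysis was possible because the 2 groups hold different rats and share no replicate number.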
